A study of Homo sapiens with 9 samples.

Results

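BUB1, PLK1, AURKA, TOP2A and MKI67 are genes of cell division whose RNA was followed in macrophage-like THP-1 cells given osimertinib, cisplatin or vehicle. They were chosen by gene symbol: every row of the deposited value table annotated to 1 of the 5 symbols was taken, which gave 5 rows, 1 for each gene, out of 16098 annotated rows for 14884 genes. The symbols had been singled out because these genes differed between drug-treated and vehicle-treated cells on the same arrays. Their differences from vehicle are therefore given as a description, and no p-value is given for them. Their standard errors and intervals come from the limma fit, which combines each gene's spread between arrays with that of the other tested genes. They are no test of these genes. The cells were THP-1, a human monocytic leukaemia line, brought to a macrophage-like state (M0) with the phorbol ester PMA in all 3 groups. The groups were osimertinib at 100 nM, a covalent inhibitor of mutant epidermal growth factor receptor, cisplatin at 0.5 µM, a platinum drug that crosslinks DNA, and vehicle, each for 16 h. Each group had 3 replicates that the labels call biological, each on 1 Affymetrix Human Gene 2.0 ST array, 9 arrays in all. All cells came from 1 line, and the labels do not give the number of passages or whether any of the cells were dividing.

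Cells that enter mitosis switch on a common set of genes. AURKA and PLK1 are serine/threonine kinases that mature the centrosomes and drive mitotic entry, and AURKA activates PLK1. BUB1 is a kinase of the spindle assembly checkpoint that sits at kinetochores and holds back anaphase until chromosomes are attached. TOP2A is the DNA topoisomerase that untangles sister chromatids, and MKI67 encodes Ki-67, a protein that coats mitotic chromosomes and is the usual histological marker of cycling cells. PMA drives THP-1 cells towards cell cycle exit. In RNA from whole cultures, fewer cycling cells and less RNA per cycling cell cannot be told apart.

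The start regions of these genes are shown because mitotic genes share 2 short promoter elements, the CCAAT box, which binds the factor NF-Y, and the cell cycle genes homology region (CHR), which binds the DREAM and MuvB complexes. RefSeq promoter entries on build GRCh38.p14, each running from 250 bases before to 50 bases after the gene's start, were matched for 4 of the 5 genes. No entry was matched for AURKA. The 160 bases just before the start of each gene follow, 5′ to 3′ on the gene's strand, with matches to CCAAT and to 3 letter strings of the CHR, namely TTTGAA, its variant TTCGAA and its variant CTTGAA, all on either strand, in capitals. They lie at chr2:110678064-110678223 on the minus strand for BUB1, chr16:23678729-23678888 on the plus strand for PLK1, chr17:40417897-40418056 on the minus strand for TOP2A and chr10:128126424-128126583 on the minus strand for MKI67.
BUB1: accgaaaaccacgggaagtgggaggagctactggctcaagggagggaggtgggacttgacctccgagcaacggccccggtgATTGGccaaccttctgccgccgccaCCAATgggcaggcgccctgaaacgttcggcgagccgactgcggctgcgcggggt
PLK1: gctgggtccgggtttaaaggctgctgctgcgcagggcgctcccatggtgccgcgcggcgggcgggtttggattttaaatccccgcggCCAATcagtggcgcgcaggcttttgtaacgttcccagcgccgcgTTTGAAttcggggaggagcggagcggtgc
TOP2A: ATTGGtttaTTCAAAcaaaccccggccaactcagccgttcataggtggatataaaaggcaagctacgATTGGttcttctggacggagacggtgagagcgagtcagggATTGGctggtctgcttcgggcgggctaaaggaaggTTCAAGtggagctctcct
MKI67: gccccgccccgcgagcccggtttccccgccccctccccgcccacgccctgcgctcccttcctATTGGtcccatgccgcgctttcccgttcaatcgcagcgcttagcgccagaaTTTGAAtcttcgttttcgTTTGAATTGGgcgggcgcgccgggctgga

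Over the whole 300-base window, PLK1 held 1 CCAAT match and 1 TTTGAA, the latter ending 24 bases before the start. MKI67 held 2 TTTGAA matches and 2 CCAAT matches, and the CCAAT match nearest the start shares 1 base with a TTTGAA. TOP2A held 4 CCAAT matches, 2 TTTGAA matches and 1 CTTGAA. BUB1 held 2 CCAAT matches before its start, and its TTCGAA match began 2 bases into the transcript, outside the stretch shown. Of the 35116 promoter windows in the table, 34.6% held CCAAT, 24.9% held at least 1 of the CHR letter strings, and 9.65% held both, as all 4 windows here did. These are letter matches, not measured binding.

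The array medians over all rows lay between 3.29 and 3.37. Those with osimertinib (3.29, 3.32 and 3.29) all lay below those with vehicle (3.37, 3.36 and 3.35). Those with cisplatin were 3.36, 3.29 and 3.32. Of the 14884 genes, the 7442 with a mean at or above 4.28 were tested, and all 5 mitotic genes passed that limit, with 5.47 as their lowest value on any array. The macrophage genes CD68 and CSF1R were well above it in all 3 groups. Of 13 fixed macrophage markers 8 were named in the annotation and 6 tested, while CD163 and LYZ lay below the limit. Of 9 fixed markers of immature myeloid cells 8 were named and 1, AZU1, was tested, with MPO, PRTN3, CTSG, MYB, KIT, CD34 and FLT3 below the limit. Of 7 lymphoid markers 2 were named and NKG7 was tested. Of 8 epithelial and stromal markers 5 were named and KRT18 and PECAM1 were tested.

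Among the kinases, BUB1 differed most from vehicle. Its log2 level was 6.20, 5.47 and 5.75 with osimertinib, 5.78, 6.15 and 6.18 with cisplatin, and 6.88, 6.93 and 6.93 with vehicle. All 6 drug-treated arrays lay below all 3 vehicle arrays, and the osimertinib and cisplatin arrays overlapped each other. The means were 5.81 ± 0.37 with osimertinib, 6.04 ± 0.22 with cisplatin and 6.91 ± 0.030 with vehicle (SD, n = 3 each). The difference from vehicle was -1.11 on the log2 scale with osimertinib, which is 2.15-fold lower, and -0.87 with cisplatin, which is 1.83-fold lower (SE 0.16 for both). BUB1 was also the most variable of the 5 genes among drug-treated replicates: its SD with osimertinib exceeded that of 98.1% of tested genes and its SD with cisplatin that of 86.3%, whereas its SD with vehicle exceeded that of 8.87%.

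PLK1 separated all 3 groups with little spread. Its log2 level was 6.30, 6.34 and 6.31 with osimertinib, 6.53, 6.54 and 6.54 with cisplatin, and 6.97, 7.10 and 7.08 with vehicle. The osimertinib arrays were lowest, the cisplatin arrays stood between, and no array of one group reached into another. The difference from vehicle was -0.74 with osimertinib (1.67-fold lower) and -0.51 with cisplatin (1.43-fold lower), with an SE of 0.073 for both. The SD with cisplatin was 0.011, and 2 of those 3 arrays held exactly the same value, so that spread may look smaller than it is. Equal values on at least 2 of the 3 arrays occurred in 11.5% of tested genes with osimertinib, 10.8% with cisplatin and 7.91% with vehicle.

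AURKA was the exception in direction. Its log2 level was 6.73, 6.70 and 6.77 with osimertinib, 6.55, 6.67 and 6.67 with cisplatin, and 6.32, 6.26 and 6.25 with vehicle. Every drug-treated array lay above every vehicle array, and the osimertinib arrays lay above the cisplatin arrays. The difference from vehicle was 0.45 with osimertinib (1.37-fold higher) and 0.35 with cisplatin (1.28-fold higher), with an SE of 0.076 for both. RefSeq lists the pseudogenes AURKAP1, which is transcribed, and AURKAP2, neither of them named in the annotation used here, and the row may not be specific to AURKA. BUB1P1 and MKI67P1 are likewise listed as pseudogenes of BUB1 and MKI67.

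**Figure D1:**
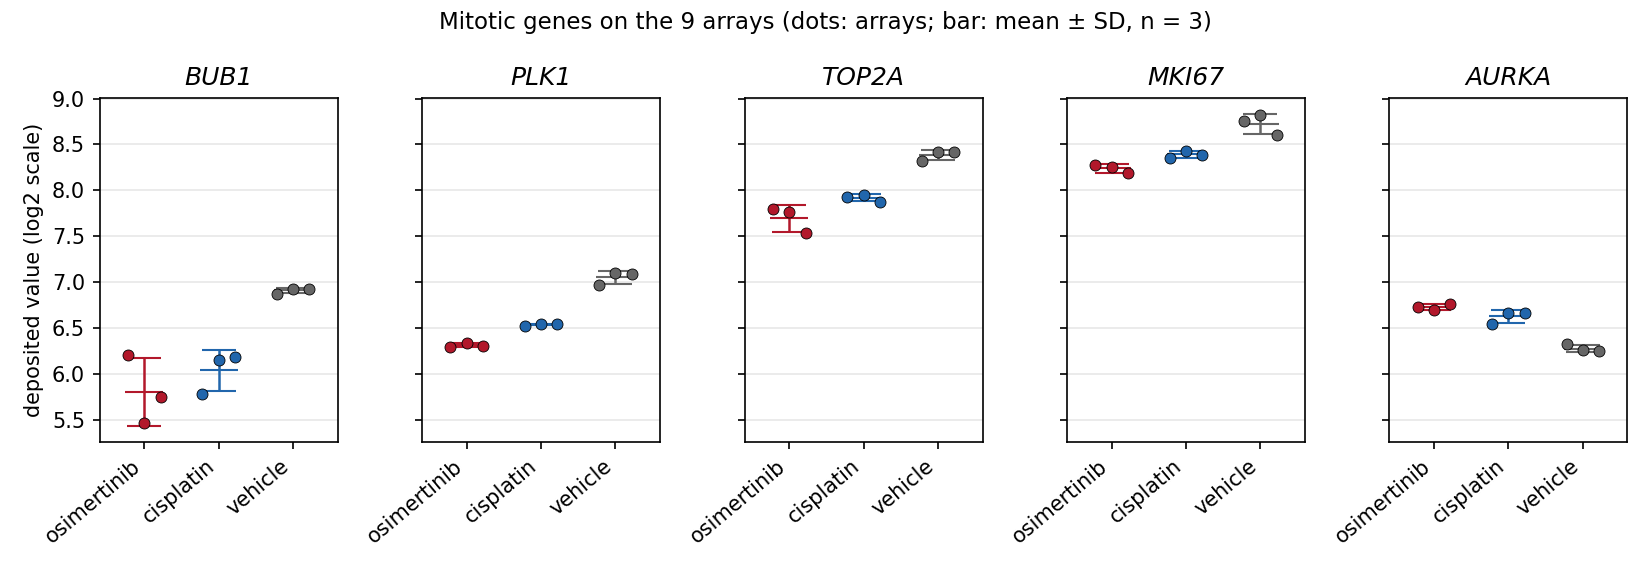
Deposited values (log2 scale, y axis) of BUB1, PLK1, TOP2A, MKI67 and AURKA on each array with osimertinib, cisplatin and vehicle. Dots are single arrays, from replicate 1 on the left to replicate 3 on the right, and bars are the mean ± SD of 3 arrays. In BUB1, PLK1, TOP2A and MKI67 all drug-treated arrays lie below the vehicle arrays, and in AURKA they lie above. Heights are comparable within a gene, not between genes.

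TOP2A and MKI67, the topoisomerase and the proliferation antigen, behaved much like PLK1. The log2 level of TOP2A was 7.80, 7.76 and 7.53 with osimertinib, 7.93, 7.95 and 7.88 with cisplatin, and 8.32, 8.41 and 8.42 with vehicle. The log2 level of MKI67 was 8.27, 8.26 and 8.19 with osimertinib, 8.35, 8.43 and 8.39 with cisplatin, and 8.75, 8.82 and 8.60 with vehicle. In both genes the 3 groups did not overlap, with osimertinib lowest and vehicle highest. TOP2A differed from vehicle by -0.69 with osimertinib and -0.46 with cisplatin (SE 0.073 for both), or 1.61-fold and 1.38-fold lower. MKI67 differed by -0.49 with osimertinib and -0.33 with cisplatin (SE 0.062 for both), or 1.40-fold and 1.26-fold lower.

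Over all tested genes, limma called 30.6% with osimertinib and 31.0% with cisplatin at an adjusted p under 0.05, and no count of calls is given for the 5 genes, which were picked from these contrasts. Their places among all tested genes show how large the differences were: with osimertinib, 0.873% of tested genes had a lower difference than BUB1, 2.88% than PLK1, 3.17% than TOP2A and 6.52% than MKI67, and 8.60% had a higher one than AURKA. With cisplatin the shares were 1.77% for BUB1, 6.07% for PLK1, 7.48% for TOP2A and 12.6% for MKI67, and 13.7% had a higher difference than AURKA. None of the 5 genes overlapped with vehicle under either drug, where 44.1% of tested genes did not overlap with osimertinib and 42.3% with cisplatin, and nothing is read from this. All 3 groups stood apart in 4 of the 5, and in 6.01% of all tested genes. That count includes the separations from vehicle for which the genes were picked, so nothing is read from it either. The contrasts with vehicle share the same 3 vehicle arrays, so that their likeness is in part built in.

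**Figure D2:**
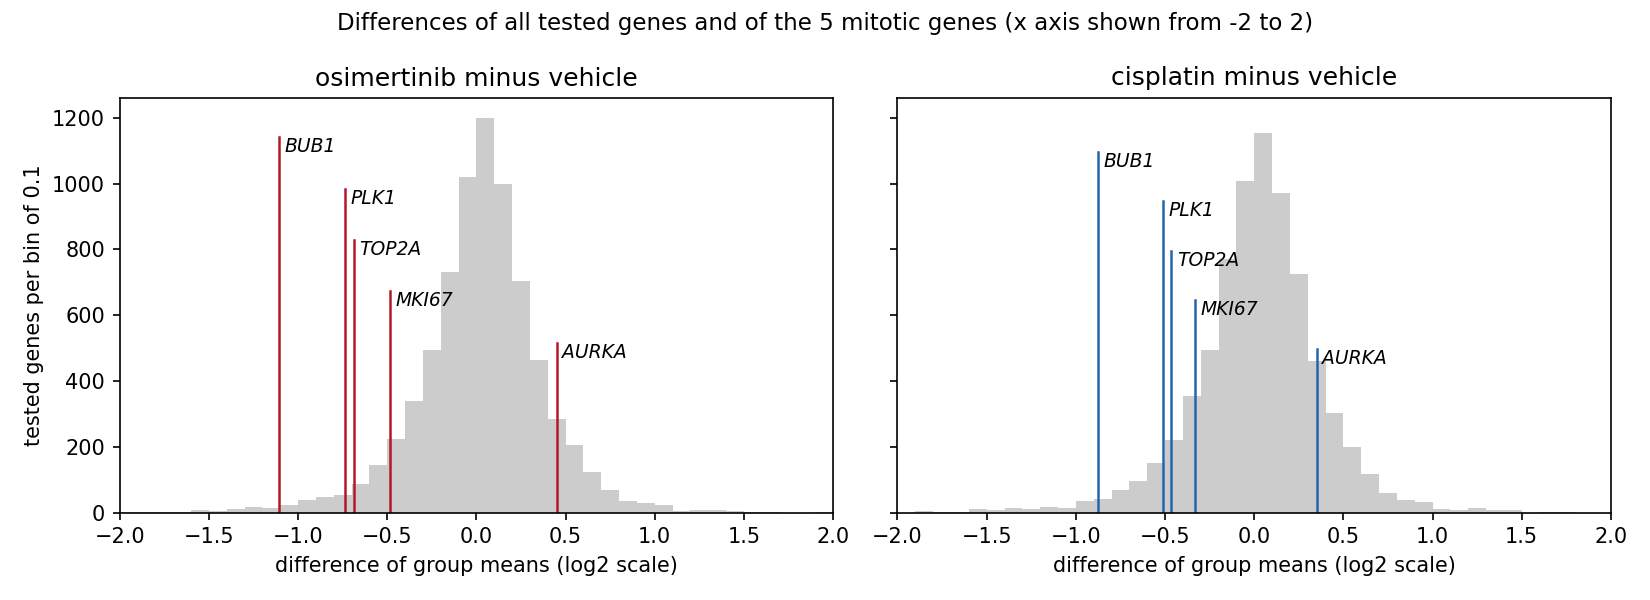
Histograms of the difference of group means (log2 scale, x axis) over the 7442 tested genes (y axis, genes per bin of 0.1) for osimertinib and for cisplatin against vehicle. Vertical lines mark the mitotic genes, and their heights only separate the labels. BUB1 lies farthest out on the low side, at -1.11 and -0.87, and AURKA lies on the high side, at 0.45 and 0.35. A few genes beyond the shown range are not drawn.

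The drugs were also set directly against each other, osimertinib minus cisplatin, at the single dose of each. The difference was -0.22 for PLK1 (95% interval -0.38 to -0.067), -0.22 for TOP2A (-0.38 to -0.067) and -0.15 for MKI67 (-0.29 to -0.019). It was -0.23 for BUB1 (-0.57 to 0.11) and 0.10 for AURKA (-0.061 to 0.27), and both intervals include no difference. The interval of BUB1 also includes the differences of PLK1, TOP2A and MKI67, and that of AURKA includes differences of that size in the other direction. In PLK1, TOP2A, MKI67 and AURKA the arrays of the drugs did not overlap, which held for 4 of the 5 genes and for 14.3% of all tested genes. After adjustment over all tested genes limma called 0 of the 5 in this contrast, where it called 1.75% of tested genes. This contrast uses the same drug-treated arrays as those the genes were picked from, so it is no independent evidence. For BUB1 the difference rested on single arrays: it was -0.43 without osimertinib replicate 1, -0.062 without osimertinib replicate 2 and -0.36 without cisplatin replicate 1. For TOP2A it was -0.14 without osimertinib replicate 3, and for AURKA it was 0.06 without cisplatin replicate 1.

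**Figure D3:**
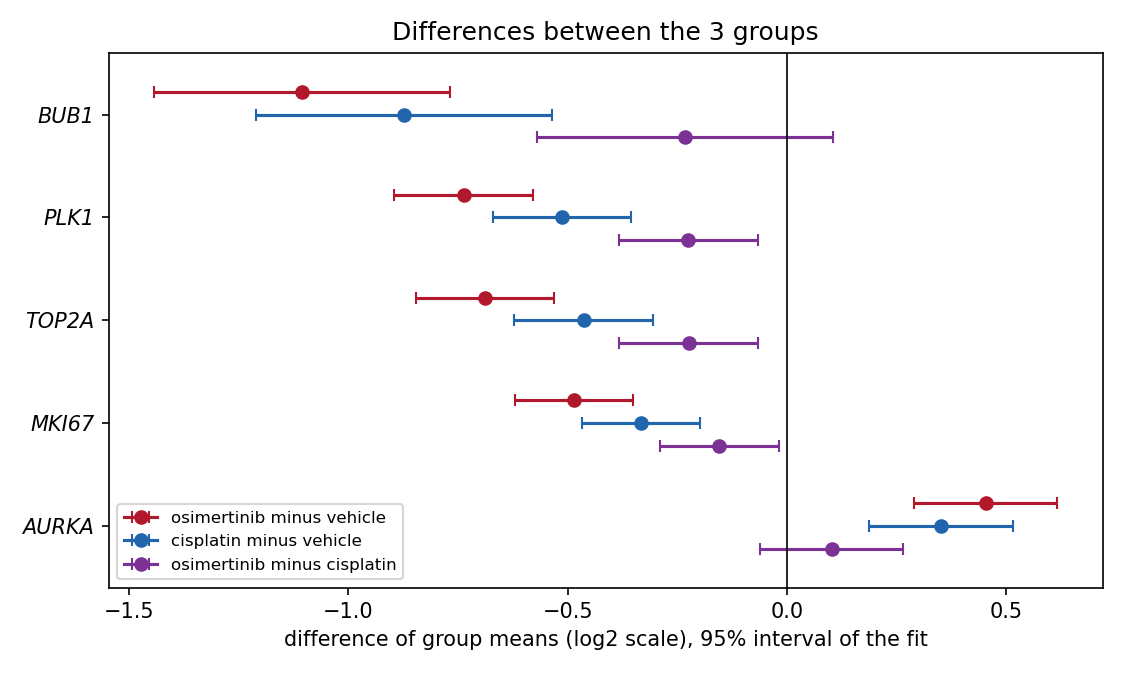
Differences of group means (log2 scale, x axis) for each mitotic gene, with 95% intervals from the limma fit, for osimertinib minus vehicle, cisplatin minus vehicle and osimertinib minus cisplatin. The points against vehicle are negative for BUB1, PLK1, TOP2A and MKI67 and positive for AURKA. The points for osimertinib minus cisplatin lie closer to 0, between -0.23 and 0.10.

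Profiles over the 9 arrays were compared by the root mean square difference of values centred on each gene's own mean, as a description. PLK1 and TOP2A were the closest pair, at 0.075 log2 units, followed by TOP2A and MKI67 at 0.12 and PLK1 and MKI67 at 0.13. BUB1 was 0.27 from PLK1, and AURKA and BUB1 were farthest apart at 0.70. Of all tested genes, those nearest to PLK1 were the actin regulator MTSS1 (0.047), PRC1, which bundles microtubules in the midzone of the anaphase spindle (0.064), and the leukocyte adaptor LCP2 (0.072). Those nearest to TOP2A were the mitotic kinesin KIF2C (0.055), the acyltransferase LCLAT1 (0.062) and LCP2 (0.064). MKI67 had SNHG8, a long non-coding RNA that hosts a small nucleolar RNA (0.049), LINS1 (0.051) and the receptor gene FGFR1 (0.053). BUB1 had SNHG5 (0.11), ARHGAP11B (0.12), which has a close copy in ARHGAP11A, and LINC-PINT (0.13). AURKA had TMEM43 (0.034), the mitotic kinase NEK6 (0.040) and ACSL4, which activates fatty acids (0.048). Groups set most of each profile, so that any gene with the same group means comes out near.

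The rest of the mitotic machinery was read from 10 fixed lists with 139 further genes, of which 111 were named in the annotation and 99 tested. The lists were chosen with earlier results of these data known, so their shares are a description and no independent evidence. With osimertinib 29 of the 99 fell and 5 rose (29.3% lower), where 13.7% of all tested genes fell and 16.9% rose. With cisplatin 28 fell and 4 rose (28.3% lower), where 14.5% of all tested genes fell and 16.5% rose. The median difference of the 99 genes was -0.16 with osimertinib and -0.11 with cisplatin, against 0.037 and 0.032 over all tested genes. These calls are from limma with Benjamini-Hochberg adjustment over the 7442 genes, and the adjusted p-values below are from the same fit. The number that fell with osimertinib was 16 after median centring of the arrays and 19 without osimertinib replicate 3. Under median centring 734 of all tested genes fell with osimertinib, against 1022 as deposited. On leaving out an array, 19 to 27 of the 99 fell with cisplatin. Of the called genes, 16 lower and 2 higher with osimertinib, and 17 lower and 1 higher with cisplatin, kept their call under all 16 alternative settings.

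Other mitotic kinases were mixed. With osimertinib 4 of 17 fell and 2 rose (23.5% and 11.8%, median -0.17), where 13.7% of all tested genes fell and 16.9% rose. With cisplatin 3 fell and 1 rose (17.6% and 5.88%, median -0.078), where 14.5% of all tested genes fell and 16.5% rose. The share that fell with cisplatin was thus near that over all genes. BUB1B, which encodes the checkpoint protein BUBR1, stood at 5.31, 5.13 and 5.20 with osimertinib, 5.39, 5.45 and 5.45 with cisplatin, and 5.88, 5.97 and 5.80 with vehicle, and fell by 0.67 with osimertinib (adjusted p = 1.39e-04) and by 0.45 with cisplatin (adjusted p = 0.00232). NEK6, a kinase of spindle assembly, stood at 8.62, 8.61 and 8.59 with osimertinib, 8.49, 8.56 and 8.54 with cisplatin, and 8.26, 8.23 and 8.12 with vehicle. It rose with both drugs, as AURKA was higher with both, by 0.41 with osimertinib (adjusted p = 9.40e-05) and by 0.33 with cisplatin (adjusted p = 4.75e-04). PLK2, a stress-responsive relative of PLK1, fell by 0.53 with osimertinib (adjusted p = 0.00913) and was at -0.03 with cisplatin, and the direct difference between the drugs was not called (-0.50, adjusted p = 0.093). The kinase PBK fell with both drugs (-0.35 with osimertinib, -0.33 with cisplatin), MELK fell with cisplatin (-0.33), and NEK7 rose with osimertinib (0.32). Each of those calls was lost when at least 1 array was left out. CDK1, the kinase that commits cells to mitosis, fell by 0.38 with osimertinib (adjusted p = 0.0447, up to 0.199 on leaving out an array) and was at -0.29 with cisplatin (adjusted p = 0.115). AURKB, the relative of AURKA in the chromosomal passenger complex, was at -0.17 and -0.10 and was not called (adjusted p = 0.262 with osimertinib, 0.523 with cisplatin).

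Among the checkpoint partners of BUB1, with osimertinib 8 of 15 fell (53.3%, against 13.7% of all tested genes) and 0 rose (median -0.34). With cisplatin 6 of 15 fell (40%, against 14.5% of all tested genes) and 0 rose (median -0.18). The osimertinib calls of BIRC5 (adjusted p up to 0.148) and MAD2L1 (up to 0.167) were lost on leaving out at least 1 array. KNL1, the kinetochore scaffold that BUB1 docks on, stood at 5.30, 5.41 and 5.15 with osimertinib, 5.27, 5.49 and 5.56 with cisplatin, and 6.22, 6.01 and 6.23 with vehicle. It fell by 0.86 with osimertinib (adjusted p = 7.14e-05) and by 0.71 with cisplatin (adjusted p = 3.27e-04). KNTC1, which brings dynein and checkpoint proteins to kinetochores, fell by 0.79 with osimertinib (adjusted p = 1.39e-04) and by 0.93 with cisplatin (adjusted p = 3.49e-05). CDCA8, which encodes borealin of the chromosomal passenger complex, fell by 0.58 and 0.42, and SGO1, which protects centromeric cohesion downstream of BUB1, by 0.81 and 0.69, with osimertinib and cisplatin in that order. CDC20, the target of the checkpoint, fell by 0.34 with osimertinib (adjusted p = 0.0125, and 0.0583 without osimertinib replicate 3) and by 0.54 with cisplatin (adjusted p = 6.57e-04).

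Activators and partners of AURKA and PLK1 were named for 10 of 16 genes, and 4 of the 7 tested (57.1%) fell with each drug, with 0 higher. Of all tested genes 13.7% fell with osimertinib and 14.5% with cisplatin. CEP192, the centrosomal scaffold that recruits both kinases, fell by 0.50 with osimertinib (adjusted p = 0.00105) and by 0.76 with cisplatin (adjusted p = 4.34e-05). CKAP5, a microtubule polymerase, fell by 0.39 and 0.35, and pericentrin, PCNT, by 0.38 and 0.48, with osimertinib and cisplatin in that order. HMMR, which helps place AURKA and its activator on the spindle, fell by 0.49 with osimertinib (adjusted p = 0.00155). FOXM1, the transcription factor of G2 and mitosis genes, fell by 0.30 with cisplatin (adjusted p = 0.0498, and 0.148 without cisplatin replicate 1) and was at -0.22 with osimertinib. The PCNT call with osimertinib was at an adjusted p of 0.0612 without osimertinib replicate 2. TPX2 and BORA, the direct activators of AURKA and PLK1, were not named in the annotation.

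Among mitotic cyclins and their switch, 5 of 11 fell with osimertinib (45.5%, against 13.7% of all tested genes). With cisplatin 1 of 11 fell (9.09%, against 14.5% of all tested genes), and 0 were higher with either drug. CCNB1, which encodes cyclin B1, stood at 4.59, 4.31 and 4.28 with osimertinib, 4.60, 4.60 and 4.64 with cisplatin, and 4.93, 4.84 and 5.12 with vehicle. It fell by 0.57 with osimertinib (adjusted p = 0.00225) and by 0.35 with cisplatin (adjusted p = 0.0356, and 0.137 without vehicle replicate 3), from a level close to the limit. CCNB2 (-0.43), CCNF (-0.32) and GTSE1 (-0.32) fell with osimertinib as well, besides CDK1. Of these 5 calls CCNB1 was kept under all 16 alternative settings, while those of CCNB2 (adjusted p up to 0.0918), CCNF (up to 0.147), GTSE1 (up to 0.0773) and CDK1 were lost on leaving out at least 1 array. The larger count with osimertinib is not shown to be a difference between the drugs. In the direct contrast 0 of the 11 were called, where limma called 1.75% of all tested genes. Of the anaphase-promoting complex and its activators, 1 of 14 fell with osimertinib (7.14%) and 2 of 14 with cisplatin (14.3%), with 0 higher. Of all tested genes 13.7% fell with osimertinib and 14.5% with cisplatin, so neither count exceeded the share over all genes. The called genes were CDC20 and, with cisplatin, ANAPC1 (-0.37, adjusted p = 0.0116, and 0.0578 without vehicle replicate 1).

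**Figure D4:**
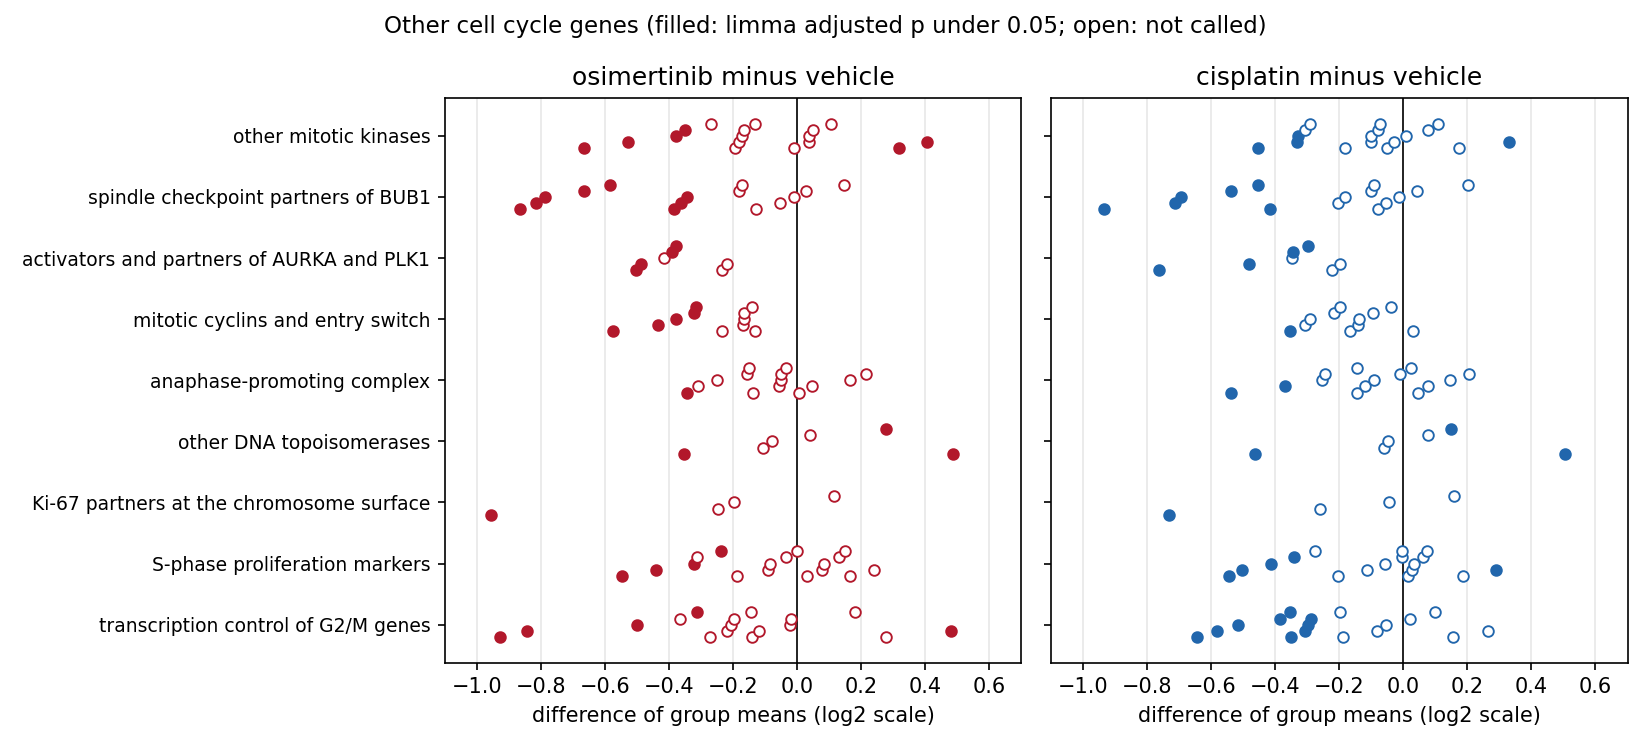
Differences from vehicle (log2 scale, x axis) of the tested genes of 9 fixed cell cycle lists (rows), for osimertinib and for cisplatin. Each dot is a gene, filled where limma's adjusted p was under 0.05 and open otherwise, and a gene in several lists appears in each. Of the 15 checkpoint partners 8 fell with osimertinib and 6 with cisplatin, where 13.7% and 14.5% of all tested genes fell. Some of the osimertinib calls were lost on leaving out an array. The list of DNA topoisomerases holds dots on both sides of 0. Vertical offsets within a row only separate dots.

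Other DNA topoisomerases and their repair enzyme lay on both sides of 0. TOP2B, the isoform used by non-dividing cells, rose by 0.28 with osimertinib (adjusted p = 0.00581) and was at 0.08 with cisplatin (adjusted p = 0.403). TDP2, which removes trapped topoisomerase II from DNA ends, rose by 0.49 with osimertinib (adjusted p = 0.013) and by 0.50 with cisplatin (adjusted p = 0.011), and TOP3B fell by 0.35 and 0.46, with osimertinib and cisplatin in that order. TOP1 rose by 0.15 with cisplatin (adjusted p = 0.0483). The calls of TDP2, TOP3B and TOP1 were lost on leaving out at least 1 array. In all, 2 of 6 rose (33.3%) and 1 fell (16.7%) with each drug. Of all tested genes 16.9% rose and 13.7% fell with osimertinib, and 16.5% rose and 14.5% fell with cisplatin. Around Ki-67, the mitotic kinesin KIF15 stood at 5.46, 5.25 and 5.19 with osimertinib, 5.55, 5.49 and 5.54 with cisplatin, and 6.24, 6.27 and 6.26 with vehicle. It fell by 0.96 with osimertinib (adjusted p = 8.11e-06) and by 0.73 with cisplatin (adjusted p = 7.14e-05). KIF15 was the 1 of 4 tested partners of Ki-67 that was called, where limma called 30.6% of all tested genes with osimertinib and 31.0% with cisplatin.

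Genes of DNA replication mark S phase. With osimertinib 4 of 17 fell (23.5%, against 13.7% of all tested genes) and 0 rose (median -0.036). With cisplatin 4 fell (23.5%, against 14.5% of all tested genes) and 1 rose (5.88%, against 16.5%), with a median of -0.0057. The helicase subunit MCM4 fell by 0.55 with osimertinib (adjusted p = 7.86e-05) and by 0.54 with cisplatin (adjusted p = 8.42e-05), MCM3 by 0.24 and 0.34, and RRM2, a subunit of ribonucleotide reductase, by 0.32 and 0.41, with osimertinib and cisplatin in that order. CDC45 fell with osimertinib (-0.44), CDC6 fell with cisplatin (-0.50) and UHRF1 rose with cisplatin (0.29). The calls of CDC45, CDC6, UHRF1 and, with osimertinib, MCM3 were lost on leaving out at least 1 array, and that of RRM2 with osimertinib was lost with median centring (adjusted p = 0.0525). PCNA, the sliding clamp and a common proliferation marker beside Ki-67, was at 0.08 with osimertinib (adjusted p = 0.693) and 0.03 with cisplatin (adjusted p = 0.906).

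Of the regulators of G2 and mitosis genes, 4 of 17 fell (23.5%) and 1 rose (5.88%) with osimertinib (median -0.20). With cisplatin 9 of 17 fell (52.9%) and 0 rose (median -0.29). Of all tested genes 13.7% fell and 16.9% rose with osimertinib, and 14.5% fell and 16.5% rose with cisplatin. Of the 9 calls with cisplatin, those of FOXM1, E2F3, E2F1, RBBP4 and RBL1 were lost on leaving out at least 1 array, and those of MYBL2, E2F7, E2F8 and RB1 were kept under all 16 alternative settings, as were the calls of the same 4 genes with osimertinib. MYBL2, which encodes the B-Myb partner of MuvB, stood at 6.90, 6.94 and 6.77 with osimertinib, 6.84, 7.06 and 7.06 with cisplatin, and 7.40, 7.39 and 7.33 with vehicle. It fell by 0.50 with osimertinib (adjusted p = 4.22e-04) and by 0.39 with cisplatin (adjusted p = 0.00272). The repressors E2F7 and E2F8 fell by 0.85 and 0.93 with osimertinib (adjusted p = 2.97e-04 and 3.43e-04) and by 0.58 and 0.64 with cisplatin (adjusted p = 0.00429 and 0.00467). RB1, the retinoblastoma protein gene, fell by 0.31 with osimertinib and 0.29 with cisplatin. LIN37, a MuvB subunit, rose by 0.48 with osimertinib (adjusted p = 0.0141, and 0.0659 without osimertinib replicate 2). Of 8 CDK inhibitor genes 2 were named, both below the level limit, so that 0 were tested. CDKN1A was not named.

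Between the drugs, limma called 0 of the 99 other cell cycle genes, where it called 1.75% of all tested genes. Of the 6 tested macrophage markers 3 rose with each drug and 0 fell. Of all tested genes 16.9% rose with osimertinib and 16.5% with cisplatin. The markers that rose were CD68, by 0.30 with osimertinib and 0.51 with cisplatin, CSF1R, by 0.29 and 0.50, and the lysosomal protease gene CTSD, by 0.25 and 0.27. CD14 (0.18 and 0.07), CTSB (0.07 and 0.04) and MSR1 (-0.13 and 0.05) were not called, with osimertinib and cisplatin in that order. The mean log2 level over the 8 named macrophage markers was 6.38 to 6.53 on the osimertinib arrays, 6.45 to 6.63 on the cisplatin arrays and 6.33 to 6.34 on the vehicle arrays. Over the 8 named markers of immature myeloid cells the mean level was 3.35 to 3.60 with osimertinib, 3.41 to 3.59 with cisplatin and 3.44 to 3.65 with vehicle, and AZU1 was not called. Over the lymphoid markers it was 3.79 to 3.99, 3.82 to 3.99 and 3.63 to 3.81 in that order, and NKG7 was not called (0.30 and 0.35). Over the epithelial and stromal markers it was 4.58 to 4.71, 4.56 to 4.70 and 4.56 to 4.72, and PECAM1 was not called. KRT18 was lower with both drugs (-0.30 and -0.35), a call lost with the mean over all its rows (adjusted p = 0.342 and 0.251). Its call was also lost on leaving out at least 1 array with each drug. Of the 16 alternative settings, 8 ended it with osimertinib and 3 with cisplatin. The part of these markers in the mitotic differences was not tested.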

How the data were processed

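Total RNA of 9 THP-1 cultures, 3 per group by the sample labels, was hybridised to 1 array each. The scans were summarized to gene level by an outside provider, per the series design text, and the submitters' processing notes name Affymetrix Power Tools without a version. The deposited values were read as log2 from their range (0.65 to 13.17). No source used here states the log base, the background correction or the summarization method. Another base would change every fold. The arrays were already on a similar scale (medians 3.29 to 3.37, lower with osimertinib than with vehicle), so changes are relative to most transcripts. Of 53617 rows, 16098 (30.0%) were named with 1 gene by the platform annotation, which can be old. Names were updated through the RefSeq table of GRCh38.p14, where 0 symbols changed. For the 779 genes with several rows, the row with the highest mean was used. The 7442 genes at or above the median gene mean (4.28) were fitted with limma 3.58.1 in R 4.3.3: 3 group means, 6 residual degrees of freedom, empirical Bayes with trend and robust fitting, two-sided p-values adjusted by Benjamini-Hochberg within a contrast and called under 0.05. The fit was run on simulated data with independent normal noise and the same spread in all groups. That run does not cover equal values on several arrays or spreads that differ between groups, both of which occur here.

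Named were the 5 chosen genes, up to 4 called genes of each list and contrast by p, 8 fixed genes where measured, the 3 nearest profiles of each chosen gene, and further genes that complete a small count (such as NEK7, LIN37 and UHRF1), chosen after their values were seen. The genes and lists were chosen with earlier results of these data known. Replicates are labelled biological replicates of 1 line, with no further detail. Array number limits the precision. Alternatives were other level limits, quantile normalization or median centring on top, the mean over rows, no trend or robust fitting, a replicate block, and leaving out each array.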

Additional observations from a re-analysis of the deposited data

How the results depend on the processing

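All 15 differences of the 5 genes (3 contrasts each) kept their sign under the 16 alternatives. Those that moved by more than the replicate SD were the following. With quantile normalization on top, PLK1 was -0.68 with osimertinib, -0.43 with cisplatin and -0.25 for osimertinib minus cisplatin, AURKA was 0.51 with osimertinib and 0.44 with cisplatin, and TOP2A was -0.41 with cisplatin. With median centring on top, PLK1 was -0.67 with osimertinib and -0.20 for osimertinib minus cisplatin, and AURKA was 0.52 with osimertinib.

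Of the 99 other cell cycle genes, those higher with cisplatin numbered 9 with quantile normalization, 2 without trend and robust fitting, 2 with the replicate block, and 1 to 5 on leaving out an array. Those higher with osimertinib numbered 9 with quantile normalization and 2 to 6 on leaving out an array. Those lower with osimertinib numbered 16 with median centring and 19 to 31 on leaving out an array. Those lower with cisplatin numbered 19 to 27 on leaving out an array, against 28 with all arrays. Between the drugs 0 to 1 was lower on leaving out an array. Over all genes, 130 were called between the drugs, against 76 without the level limit, 217 with quantile normalization, 85 with median centring, 63 without trend and robust fitting, and 54 to 146 on leaving out an array. The share of higher genes among all called was 68.3% with osimertinib and 66.9% with cisplatin under quantile normalization, against 55.1% and 53.2% as deposited. Under median centring it was 67.7% with osimertinib, and 56.5% against 43.8% for osimertinib minus cisplatin. The cause of these moves was not tested. Deviations from the group means correlated at -0.23 to 0.13 between same-numbered arrays and at -0.12 to 0.20 between differently numbered ones. Same-numbered arrays were thus not more alike, which does not exclude that those cultures were handled together. The replicate block ended the call of 3 cell cycle genes with osimertinib and 4 with cisplatin. Values near the level limit of 4.28, such as CCNB1, are the least certain, since detection was not measured here.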
